A study of Mus musculus with 9 samples.

Results

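Des, Vim, Nes, Synm, Sync, Plec, Lmna, Lmnb1 and Lmnb2 encode intermediate filament proteins, a linker that ties such filaments to other structures, and the nuclear lamins. These 9 genes, chosen by name from 35675 genes with summed counts, were followed across 9 RNA-seq libraries, and all 9 passed the filter on low counts. Intermediate filaments are rope-like polymers of the cytoplasm, and the lamins are their relatives that line the inside of the nuclear envelope. Vimentin (Vim) is the filament protein of fibroblasts and other mesenchymal cells, and desmin (Des) that of muscle, where it links the Z-discs of neighbouring myofibrils. Nestin (Nes) and synemin (Synm) join filaments built by those partners, syncoilin (Sync) is a muscle-enriched family member, and plectin (Plec) is a giant plakin that bridges filaments to junctions, the nucleus and Z-discs.

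The cells were mouse embryonic fibroblasts (MEFs) from embryonal tissue, and all libraries carried the Dmdmdx genotype, the premature stop in the dystrophin gene that models Duchenne muscular dystrophy. Of the 3 groups with 3 libraries each, the first received ectopic MyoD together with the small molecules F/R/C (MyoD F/R/C), the second received MyoD alone (MyoD), and the last was left untreated (MEF). MyoD is the transcription factor that can start the muscle programme in other cells, and the study title concerns reprogramming to myogenic progenitors. The labels spell out neither the letters F, R and C nor the vector, promoter, dose or time. Nor do they say that libraries of one group are separate cultures or animals, and each p-value therefore covers only how these libraries vary, which may be technical.

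Library totals were 21112071 to 24291056 estimated counts. Levels are given as CPM, that is edgeR counts relative to the effective library size, and levels of different genes are compared only as TPM, which is scaled for transcript length. A count of 0 allowed up to 3 counts, or 0.113 to 0.144 CPM, for counting error only. The summed level of 12 skeletal muscle markers was 34142 to 47648 CPM in MyoD F/R/C, 949 to 3013 CPM in MyoD, and 7.02, 4.11 and 564 CPM in MEF replicates 1, 2 and 3, so MEF replicate 3 stood apart from the other untreated libraries. That of 10 fibroblast markers was 5307 to 8052 CPM in MyoD F/R/C, 8598 to 34640 CPM in MyoD and 19900 to 82399 CPM in MEF libraries. In such bulk RNA a change in the number of cells of a type cannot be told apart from a change in RNA per cell.

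Des and Nes were the members with the largest differences, and both were far higher with MyoD F/R/C. Lmnb2 and Lmnb1, which encode the B-type lamins, and Sync were also higher than in MEF, while Synm was lower. Vim was lower than in MyoD libraries, and Plec and Lmna passed the test in no comparison of whole genes. Against MEF, 5 of the 9 genes rose and 1 fell at an adjusted p under 0.05 (edgeR quasi-likelihood test with Benjamini-Hochberg adjustment over 15714 genes), beside 37.6% of all genes called, 19.5% higher and 18.1% lower. Against MyoD, 3 rose and 2 fell, beside 33.9% of all genes called, 17.8% higher and 16.1% lower. None was called between MyoD and MEF, where 0% of all genes were called by edgeR, 732 genes had an unadjusted p under 0.05 and DESeq2 called 171. The median log2 fold change of the 9 genes was 1.02 for MyoD F/R/C against MEF, 1.12 for MyoD F/R/C against MyoD and 0.43 for MyoD against MEF, beside -0.04, -0.02 and -0.01 over all genes. Any pair of these comparisons shares a group of 3 libraries, so they are not independent.

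**Figure D1:**
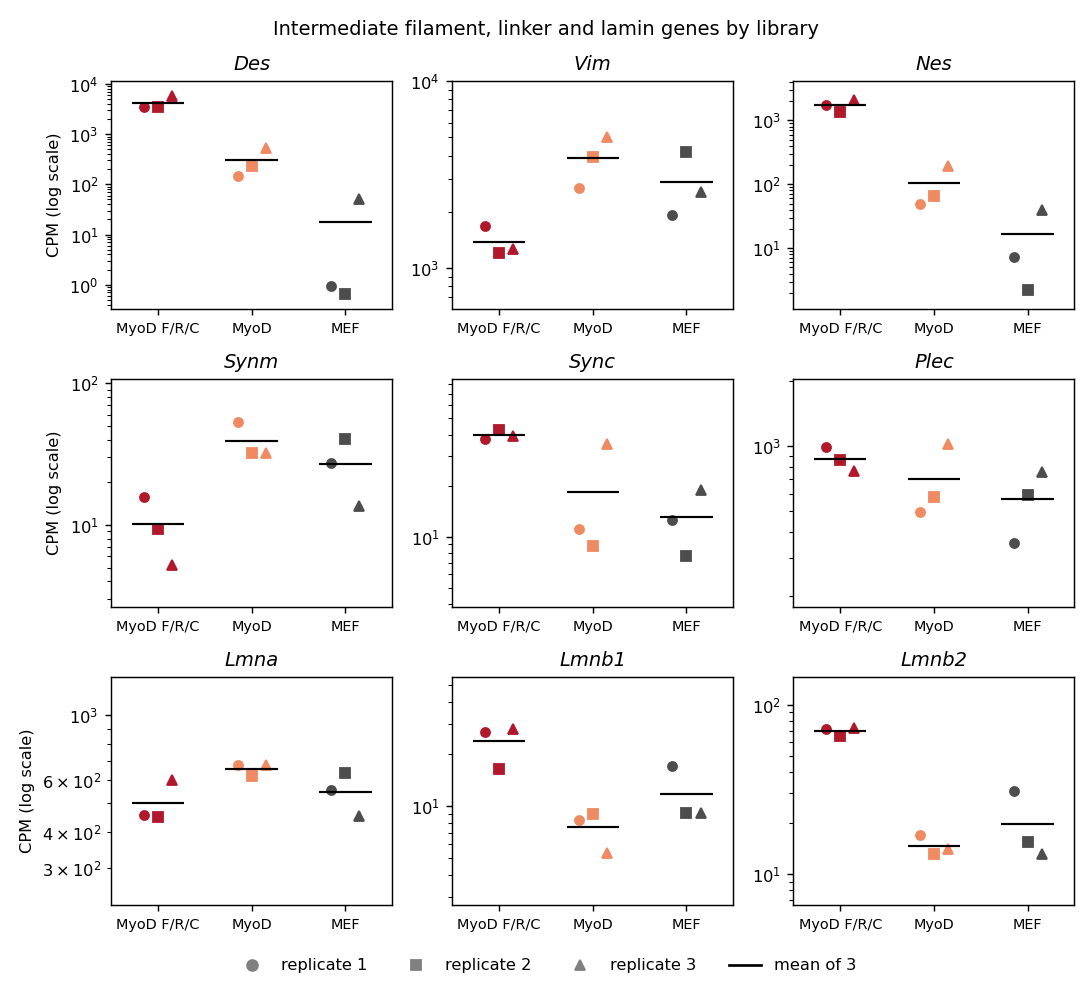
CPM of each gene in every library on log axes, with MyoD F/R/C on the left, MyoD in the middle and MEF on the right, a symbol for each replicate number and a line at the mean of 3. Des and Nes separate all 3 groups, while Lmna varies between 449 and 676 CPM.

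Des (ENSMUSG00000026208, chromosome 1, 75360329 to 75368579, plus strand, GRCm38) had 3541, 3457 and 5755 CPM in the MyoD F/R/C libraries, 149, 238 and 533 CPM with MyoD alone, and 0.93, 0.644 and 50.7 CPM in MEF libraries. The 3 groups did not overlap, and MEF replicate 3 was high among the untreated libraries. The mean was 4251 ± 1303 CPM in MyoD F/R/C, 307 ± 201 CPM in MyoD and 17.4 ± 28.8 CPM in MEF (SD, n = 3 each). Des rose with MyoD F/R/C against MEF (edgeR log2 fold change 7.93 ± 1.79 SE, adjusted p = 0.00911), and the call held in all alternatives that gave a value.

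Against MyoD the difference in Des was 3.79 ± 1.47 on the log2 scale and did not pass (edgeR adjusted p = 0.0767). It passed in edgeR once replicate numbers entered as a block (4.11, adjusted p = 0.0246), without MEF replicate 1 (0.0496), MEF replicate 2 (0.0446) or MEF replicate 3 (0.0018), and in the fit of only those groups (0.00352). Between MyoD and MEF the difference was 4.14 ± 1.50 (edgeR adjusted p = 0.86), and without MEF replicate 3 it was 8.62 (adjusted p = 0.00315). The muscle markers of MEF replicate 3 moved with its Des level, and their part in the result was not tested beyond these values.

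Vim (ENSMUSG00000026728, chromosome 2, 13573927 to 13582826, plus strand), the filament gene of fibroblasts, had 1670.5, 1202 and 1258 CPM in MyoD F/R/C, 2686, 3914 and 5006 CPM in MyoD, and 1929, 4176 and 2538 CPM in MEF libraries. Every MyoD F/R/C library was below every other library, and MyoD and MEF overlapped. Vim fell with MyoD F/R/C against MyoD (edgeR log2 fold change -1.49 ± 0.38 SE, adjusted p = 0.0174), a call that ended without MyoD F/R/C replicate 2 (0.0611) or 3 (0.0567). Against MEF the value was -1.07 ± 0.38 (edgeR adjusted p = 0.0525), just short of the threshold. It passed in 6 of 18 alternatives, among them those without MEF replicate 1 (0.0307) and without MyoD replicate 3 (0.0434). The summed fibroblast markers lay lower in every MyoD F/R/C library than in every MyoD and MEF library. Of the 10, 3 fell against MEF and 2 against MyoD, beside 18.1% and 16.1% of all genes lower. None rose, though 2 of the 10 had positive fold changes against MyoD. The collagens Col1a1, Col1a2 and Col3a1 had the highest levels of the 10. Dcn averaged 241 CPM in MyoD F/R/C, 53.1 CPM in MyoD and 218 CPM in MEF. The part of these markers in the Vim values was not tested.

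Per length, Des made up 48.7%, 57.1% and 65.7% of Des plus Vim TPM in the MyoD F/R/C libraries, 2.51%, 2.57% and 4.53% with MyoD alone, and 0.0319%, 0.00673% and 0.908% in MEF libraries. The groups did not overlap, so each difference had a two-sided exact permutation p of 0.1, the smallest that 3 against 3 libraries can give. Mean shares were 57.1% ± 8.50 in MyoD F/R/C, 3.20% ± 1.15 in MyoD and 0.315% ± 0.513 in MEF (SD, n = 3 each). In MyoD F/R/C libraries Des averaged 2281 TPM and Vim 1751 TPM, and their ranges overlapped. A short Vim transcript with a retained intron and no coding sequence, Vim-203, took 39.7% to 45.5% of the Vim TPM. The overlap of Des and Vim is that of sums that include it. Among coding transcripts in MyoD F/R/C libraries, Des-201 had 1965, 1847 and 2439 TPM. Vim-201 had 486, 372 and 327 TPM there, Vim-206 had 762, 509 and 378 TPM, and Vim-202 had at most 14.1 TPM.

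Nes (ENSMUSG00000004891, chromosome 3, 87971078 to 87980451, plus strand), a partner of desmin and vimentin known from neural progenitors and from developing and regenerating muscle, had 1727, 1339 and 2059.8 CPM in MyoD F/R/C, 49.7, 66.7 and 195 CPM in MyoD, and 7.35, 2.21 and 40.0 CPM in MEF libraries. All MyoD libraries lay above all MEF libraries and below all MyoD F/R/C libraries, with MEF replicate 3 close to the lowest MyoD library. Nes rose against MEF (edgeR log2 fold change 6.69 ± 1.15 SE, adjusted p = 0.00294) in all alternatives. It also rose against MyoD (4.04 ± 1.02, edgeR adjusted p = 0.0165), a call that ended without MyoD replicate 1 (0.057) or 2 (0.0662). Between MyoD and MEF the value was 2.65 ± 0.96 (edgeR adjusted p = 0.86), and 4.46 without MEF replicate 3 (0.0452).

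Of 12 neural and glial markers, 8 were tested, of which 2 rose and 1 fell with MyoD F/R/C against MEF. Their summed level was 476 to 687 CPM in MyoD F/R/C, 82.0 to 204 CPM in MyoD and 89.9 to 145 CPM in MEF libraries. The list holds Ncam1, an adhesion gene of neurons and also of muscle, which averaged 528 CPM in MyoD F/R/C, 68.8 CPM in MyoD and 55.8 CPM in MEF. The defining glial markers Sox10, Gfap and Fabp7 were at most 0.456 CPM in any library, and Sox2 fell against MEF.

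E-boxes, the CANNTG sites that MyoD and related factors bind, were searched on both strands in RefSeq promoters of GRCm38.p6, from 250 bases before to 50 bases after the annotated start. Windows are reported for 7 of the 9 genes and not for Plec or Lmnb1, whose E-boxes are therefore not given here. The windows of Des and Nes, the genes with the largest rises, are shown with E-boxes in capitals.
Des promoter: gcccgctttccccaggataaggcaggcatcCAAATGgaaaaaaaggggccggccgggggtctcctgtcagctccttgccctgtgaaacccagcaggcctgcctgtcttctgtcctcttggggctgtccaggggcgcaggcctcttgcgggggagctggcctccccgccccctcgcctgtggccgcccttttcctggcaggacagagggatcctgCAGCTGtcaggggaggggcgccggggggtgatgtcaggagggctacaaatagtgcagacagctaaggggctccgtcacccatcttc
Nes promoter: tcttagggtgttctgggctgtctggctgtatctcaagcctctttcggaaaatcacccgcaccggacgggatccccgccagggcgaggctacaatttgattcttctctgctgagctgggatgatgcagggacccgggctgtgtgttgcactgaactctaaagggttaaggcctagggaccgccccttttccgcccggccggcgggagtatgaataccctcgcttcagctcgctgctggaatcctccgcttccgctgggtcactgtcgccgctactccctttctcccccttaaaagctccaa
The Des window (chr1:75360042-75360341, plus strand) held CAAATG at -220 and CAGCTG at -36 from the start. The Nes window (chr3:87970843-87971142, plus strand) held no CANNTG. Sync held CAAGTG at -20 and CAGCTG at 27, Synm held CACGTG at -193, and the windows of Vim and Lmna held none. Lmnb2 has 2 windows, with 4 matches in the outer one and CACCTG at -31 in the inner one. Among 32851 promoters of 300 bases, 72.3% held CANNTG and 16.3% held its form CAGCTG.

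Synm (ENSMUSG00000030554, chromosome 7, 67730160 to 67759742, minus strand), whose product joins desmin and vimentin filaments to costameres, had 15.7, 9.34 and 5.23 CPM in MyoD F/R/C, 53.7, 32.3 and 32.1 CPM in MyoD, and 27.6, 40.3 and 13.6 CPM in MEF libraries. MyoD F/R/C replicate 1 lay above MEF replicate 3, so those groups overlapped, while every MyoD library was above every MyoD F/R/C library. Synm went opposite to Des and Nes, and fell against MyoD (edgeR log2 fold change -1.96 ± 0.50 SE, adjusted p = 0.0167). That call ended without MyoD F/R/C replicate 2 (0.057) or 3 (0.0523) or MyoD replicate 1 (0.053). The fall against MEF was near the threshold (-1.43 ± 0.49, edgeR adjusted p = 0.0469) and ended in 10 of 18 alternatives, with adjusted p up to 0.141 without MEF replicate 2.

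Synemin is made as a longer and a shorter form that differ at the tail. Synm-202 (1561 codons, the long form) had 0.676, 0.123 and 0.103 TPM in MyoD F/R/C, 4.67, 4.29 and 3.86 TPM in MyoD, and 2.65, 4.26 and 2.35 TPM in MEF libraries. It fell against MEF (edgeR log2 fold change -3.01 ± 0.65 SE, adjusted p = 0.0228 over 44724 transcripts). The fall against MyoD was -3.51 ± 0.66 (edgeR adjusted p = 0.0195). No MyoD F/R/C library reached the level of any other library. The shorter Synm-201 (1259 codons) averaged 1.42 TPM in MyoD F/R/C, 4.18 TPM in MyoD and 3.14 TPM in MEF and did not pass either test (edgeR adjusted p = 0.625 and 0.391). The Synm-202 call against MEF ended without MyoD F/R/C replicate 2 (0.0532) or 3 (0.0538) or MEF replicate 1 (0.0508) or 2 (0.0775), and that against MyoD without MyoD F/R/C replicate 2 (0.0512) or MyoD replicate 1 (0.0644).

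Sync (ENSMUSG00000001333, chromosome 4, 129287617 to 129308559, plus strand), whose product binds desmin and the dystrophin-associated protein alpha-dystrobrevin, had 37.9, 42.8 and 39.2 CPM in MyoD F/R/C, 11.1, 8.80 and 35.2 CPM in MyoD, and 12.5, 7.65 and 18.9 CPM in MEF libraries. The MyoD F/R/C values were close together and above all others, with MyoD replicate 3 just beneath them. Sync rose against MEF (edgeR log2 fold change 1.62 ± 0.53 SE, adjusted p = 0.0409), a call that ended without MEF replicate 1 (0.105) or 2 (0.131) or any MyoD F/R/C library (0.079, 0.0941 and 0.0905 without replicates 1, 2 and 3). Against MyoD it did not pass (1.12 ± 0.52, edgeR adjusted p = 0.129), but did with the replicate block (0.0289) and without MyoD replicate 3 (2.00, adjusted p = 0.00759). Exons of Sync share 782 bases with Rbbp4 on the other strand, and the use of strand in the deposited counts is not given in the sources used here.

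Plec (ENSMUSG00000022565, chromosome 15, 76170974 to 76232574, minus strand) had 996, 861 and 762 CPM in MyoD F/R/C, 491, 581 and 1027 CPM in MyoD, and 355, 589.5 and 756 CPM in MEF libraries. MyoD replicate 3 was the highest of all libraries, and the lowest MyoD F/R/C library lay just above the highest MEF library. As a whole gene Plec passed neither against MEF (edgeR log2 fold change 0.62 ± 0.36 SE, adjusted p = 0.204) nor against MyoD (0.32 ± 0.36, adjusted p = 0.522). On the TPM scale, 39 of the 54 annotated transcripts of the 9 genes reached a group mean of 1, and as many passed the filter for testing. Of the transcripts tested, 9 rose and 5 fell against MEF, beside 11.5% of all transcripts called, and 3 rose and 5 fell against MyoD, beside 7.88%. Between MyoD and MEF none of them was called by edgeR, where 5 of all transcripts (0.0112%) were called and 1500 had an unadjusted p under 0.05.

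Plectin transcripts differ mainly at the first exon, which gives the protein different starts that direct it to different sites in the cell. The starts of the coding sequence are shown for Plec-215 and Plec-204, whose calls against MEF held in all alternatives run, with the first coding exon in capitals (chromosome 15, minus strand, GRCm38).
Plec-215: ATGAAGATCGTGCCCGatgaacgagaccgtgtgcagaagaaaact
Plec-204: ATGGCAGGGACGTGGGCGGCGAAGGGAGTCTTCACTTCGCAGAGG
Plec-215 had 6.53, 5.63 and 8.82 TPM in MyoD F/R/C, 1.70, 4.07 and 3.59 TPM in MyoD, and 1.01, 1.72 and 0.727 TPM in MEF libraries, and rose against MEF (edgeR log2 fold change 3.06 ± 0.47 SE, adjusted p = 0.00675). Plec-204 had 1.48, 1.71 and 0.551 TPM in MyoD F/R/C, 7.06, 6.02 and 8.49 TPM in MyoD, and 5.52, 9.72 and 17.1 TPM in MEF libraries. It fell against MEF (-2.81 ± 0.52, edgeR adjusted p = 0.0134). Neither transcript overlapped between MyoD F/R/C and MEF, and they moved in opposite directions while the gene total passed no test. Both were minor beside Plec-206, the Plec transcript of highest mean TPM in MyoD F/R/C. Plec-206 had 62.7, 51.2 and 26.9 TPM in MyoD F/R/C, 4.79, 14.4 and 43.6 TPM in MyoD, and 10.8, 15.1 and 17.8 TPM in MEF libraries. It passed neither against MEF (edgeR log2 fold change 2.02 ± 0.73 SE, adjusted p = 0.12) nor against MyoD (1.42 ± 0.72, adjusted p = 0.275). The fall of Plec-204 against MyoD (-2.23 ± 0.51, edgeR adjusted p = 0.0358) ended with the replicate block (0.0698) and without any of the 6 libraries compared or without MEF replicate 2 (0.0595 to 0.1).

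A small exon also differed among Plec transcripts. Plec-205 and Plec-207 share their first exon, and of this pair only Plec-205 has exon 3, 15 bases or 5 codons at chr15:76194559-76194573 (minus strand, GRCm38). The exon is shown in capitals with 30 coding bases on either side, above the same stretch without it.
Plec-205: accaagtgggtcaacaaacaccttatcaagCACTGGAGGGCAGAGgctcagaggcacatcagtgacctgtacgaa
Plec-207: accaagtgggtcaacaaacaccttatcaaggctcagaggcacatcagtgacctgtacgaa
Plec-205 had 16.3, 11.3 and 2.54 TPM in MyoD F/R/C, 0.694, 2.80 and 2.82 TPM in MyoD, and 1.64, 0.46 and 1.56 TPM in MEF libraries, and rose against MEF (edgeR log2 fold change 3.31 ± 0.80 SE, adjusted p = 0.0329). Plec-207 had 0.754, 0.675 and 0.412 TPM in MyoD F/R/C, 4.57, 2.09 and 7.73 TPM in MyoD, and 4.14, 2.57 and 3.80 TPM in MEF libraries. It fell against MEF (-2.16 ± 0.52, edgeR adjusted p = 0.0325) and against MyoD (-2.69 ± 0.53, adjusted p = 0.0223). Among Plec transcripts that hold the exon or span its place without it, those with the exon took 32.0%, 34.1% and 19.8% of TPM in MyoD F/R/C, 14.4%, 16.1% and 12.2% in MyoD, and 10.1%, 10.1% and 7.92% in MEF libraries. These shares were chosen after the values were seen and are given with no test.

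The rise of Plec-205 ended with the replicate block (edgeR adjusted p = 0.0746), and without MyoD F/R/C replicate 1 (0.0865) or 2 (0.0849), MyoD replicate 2 (0.057) or MEF replicate 1 (0.0866), 2 (0.102) or 3 (0.0745). The fall of Plec-207 against MEF held with the block (0.0451) but ended without any 1 of the 6 libraries compared or without MyoD replicate 1 (0.0558 to 0.0917). Against MyoD it ended without MyoD F/R/C replicate 1 (0.065), 2 (0.0692) or 3 (0.0726) or MyoD replicate 1 (0.0657). Plec-202, which also has the exon, rose against MEF (3.11 ± 0.75, edgeR adjusted p = 0.0327; 0.0575 with the block), and Plec-203 fell (-2.39 ± 0.53, adjusted p = 0.0255; 0.0643 with the block). Each of these calls also ended without some single libraries, Plec-202 without MyoD F/R/C replicate 1 or 2, MyoD replicate 1 or 2, or MEF replicate 2 or 3 (at most 0.0908) and Plec-203 without MyoD F/R/C replicate 2 or 3 or MEF replicate 2 or 3 (at most 0.0818). The transcripts share most of their length, so their counts rest on how kallisto divided shared reads, and values of single Plec transcripts are uncertain.

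**Figure D2:**
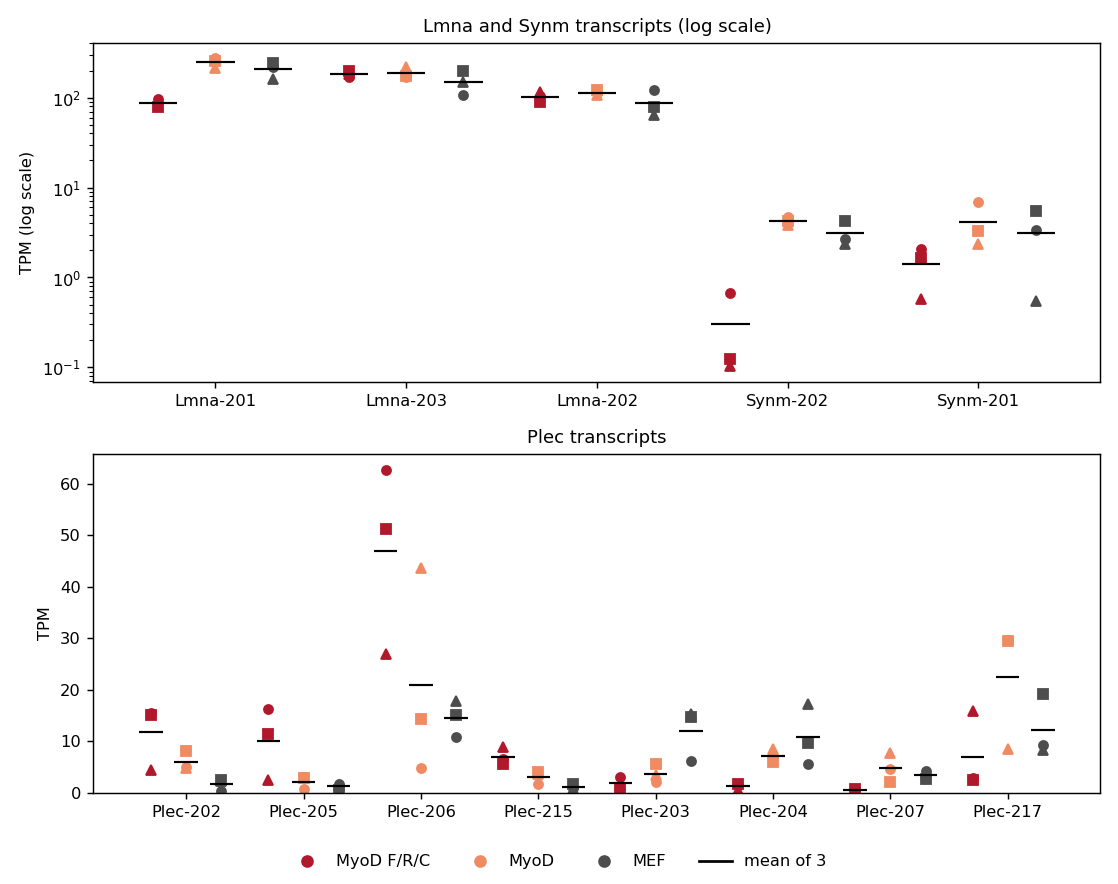
TPM of transcripts in every library, with Lmna and Synm on a log axis above and Plec on a linear axis below. Within each transcript MyoD F/R/C is on the left, MyoD in the middle and MEF on the right, symbols are replicates 1 (circle), 2 (square) and 3 (triangle), and lines are means of 3. Lmna-201, Synm-202 and Plec-204 are lowest in MyoD F/R/C, and Plec-215 is highest there.

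Lmna (ENSMUSG00000028063, chromosome 3, 88480147 to 88509956, minus strand) encodes lamins A and C, the A-type lamins that stiffen the nucleus and are abundant in mechanically loaded tissue such as muscle. It had 456, 449 and 599.7 CPM in MyoD F/R/C, 675, 621 and 676 CPM in MyoD, and 556, 634 and 453 CPM in MEF libraries. The MyoD libraries lay above the MyoD F/R/C libraries, whereas MyoD F/R/C and MEF overlapped. No difference passed the test, with edgeR log2 fold changes of -0.13 ± 0.21 SE against MEF (adjusted p = 0.671) and -0.39 ± 0.21 against MyoD (adjusted p = 0.189).

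The 2 proteins come from alternative use of the last coding exons. Lmna-201 (665 codons) encodes the lamin A precursor and Lmna-203 (574 codons) lamin C, and their first 1704 coding bases, 568 whole codons, are the same. The coding sequence around the point where they part is shown from coding base 1669, with bases of only the named transcript in capitals (chromosome 3, minus strand, GRCm38).
Lmna-201: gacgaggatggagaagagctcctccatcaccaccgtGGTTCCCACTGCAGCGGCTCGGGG
Lmna-203: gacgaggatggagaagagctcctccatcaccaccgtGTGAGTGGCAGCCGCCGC
The last shared base is at 88483318, after which Lmna-203 reads on into the next base while Lmna-201 is spliced to 88482612. Lmna-201 had 97.5, 77.8 and 82.8 TPM in MyoD F/R/C, 275, 257 and 213 TPM in MyoD, and 218, 246 and 161 TPM in MEF libraries. All 3 MyoD F/R/C libraries were below all others. Lmna-203 had 171, 196 and 185 TPM in MyoD F/R/C, 168, 172 and 220.1 TPM in MyoD, and 108, 197 and 148 TPM in MEF libraries, and here the groups overlapped.

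The lamin A transcript fell against MyoD (edgeR log2 fold change -1.11 ± 0.22 SE, adjusted p = 0.0222). Against MEF the fall was -0.84 ± 0.22 (edgeR adjusted p = 0.0417), and it ended with the replicate block (0.0618). For the lamin C transcript the values were 0.37 ± 0.30 against MyoD (edgeR adjusted p = 0.521) and 0.70 ± 0.30 against MEF (0.176), so it did not pass. As a description with no test, Lmna-201 took 36.4%, 28.4% and 30.9% of the TPM of the pair in MyoD F/R/C, 62.1%, 59.9% and 49.2% in MyoD, and 67.0%, 55.5% and 52.1% in MEF libraries. These shares leave out the coding transcript Lmna-202 (462 codons) and are not shares of all Lmna TPM. Lmna-202 ends at 88483206, beside the end of Lmna-203 at 88483205, while Lmna-201 runs on to 88481148. Counting Lmna-202 in would lower the Lmna-201 share in each library. Lmna-202 averaged 103 TPM in MyoD F/R/C, 113 TPM in MyoD and 87.8 TPM in MEF. It passed neither against MEF (edgeR adjusted p = 0.172) nor against MyoD (0.612). The Lmna-201 call against MyoD ended without MyoD F/R/C replicate 1 (0.0679) or 2 (0.0875) or MyoD replicate 1 (0.0877) or 2 (0.0502). Against MEF it ended without any single library other than MyoD F/R/C replicate 3 or MyoD replicate 2, with adjusted p of 0.0536 to 0.153, and also with DESeq2 size factors (0.0567), with no filter (0.0837) and in the fit of only those groups (0.0606).

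Lmnb2 (ENSMUSG00000062075, chromosome 10, 80901203 to 80918245, minus strand), the gene of lamin B2, had 71.8, 65.6 and 72.9 CPM in MyoD F/R/C, 17.0, 13.1 and 14.0 CPM in MyoD, and 30.7, 15.5 and 13.1 CPM in MEF libraries. The MyoD F/R/C libraries agreed closely and lay far above the rest, and MEF replicate 1 was high among the untreated ones. Lmnb2 rose against MEF (edgeR log2 fold change 1.83 ± 0.31 SE, adjusted p = 0.00288). Against MyoD it rose by 2.25 ± 0.32 (edgeR adjusted p = 0.00182), and it kept both calls in every alternative run.

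Lmnb1 (ENSMUSG00000024590, chromosome 18, 56707813 to 56753424, plus strand), the gene of lamin B1, had 27.0, 16.4 and 27.9 CPM in MyoD F/R/C, 8.37, 9.03 and 5.34 CPM in MyoD, and 17.0, 9.14 and 9.09 CPM in MEF libraries. It rose against MyoD, with no overlap of the libraries (edgeR log2 fold change 1.65 ± 0.36 SE, adjusted p = 0.00943), in all alternatives. MEF replicate 1 lay above MyoD F/R/C replicate 2, and the call against MEF was marginal (1.02 ± 0.35, edgeR adjusted p = 0.0488). It ended in 12 of 18 alternatives, among them those without MyoD F/R/C replicate 1 (0.127) or 3 (0.137), MyoD replicate 1 (0.0657) or 2 (0.0517) or MEF replicate 2 (0.169) or 3 (0.149).

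Lamin B1 is known to be low in senescent and high in proliferating cells, so markers of the cell cycle were set beside it. Of 14 such genes, none rose and only Tyms fell with MyoD F/R/C against MEF, beside 19.5% of all genes higher and 18.1% lower. None was called against MyoD, beside 33.9% of all genes. Their summed level was 249 to 351 CPM in MyoD F/R/C, 275 to 292 CPM in MyoD and 203 to 410 CPM in MEF libraries, with wide overlap. Cdk2, a cell cycle kinase outside this list, averaged 54.0 CPM in MyoD F/R/C, 19.3 CPM in MyoD and 20.8 CPM in MEF. The part of the cell cycle in the Lmnb1 values was not tested.

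Per length, Lmna remained the main lamin gene in every library. It took 87.3%, 90.1% and 90.8% of the lamin TPM in MyoD F/R/C, 97.4%, 97.3% and 98.2% in MyoD, and 93.9%, 97.2% and 96.5% in MEF libraries. The share was lower in every MyoD F/R/C library than in any other, by a mean of -6.45 percentage points against MEF and -8.19 against MyoD (exact two-sided permutation p = 0.1 each, the smallest that 3 against 3 can give). The lowest MyoD share lay just above the highest MEF share, and the means differed by 1.74 percentage points (exact permutation p = 0.1).

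**Figure D3:**
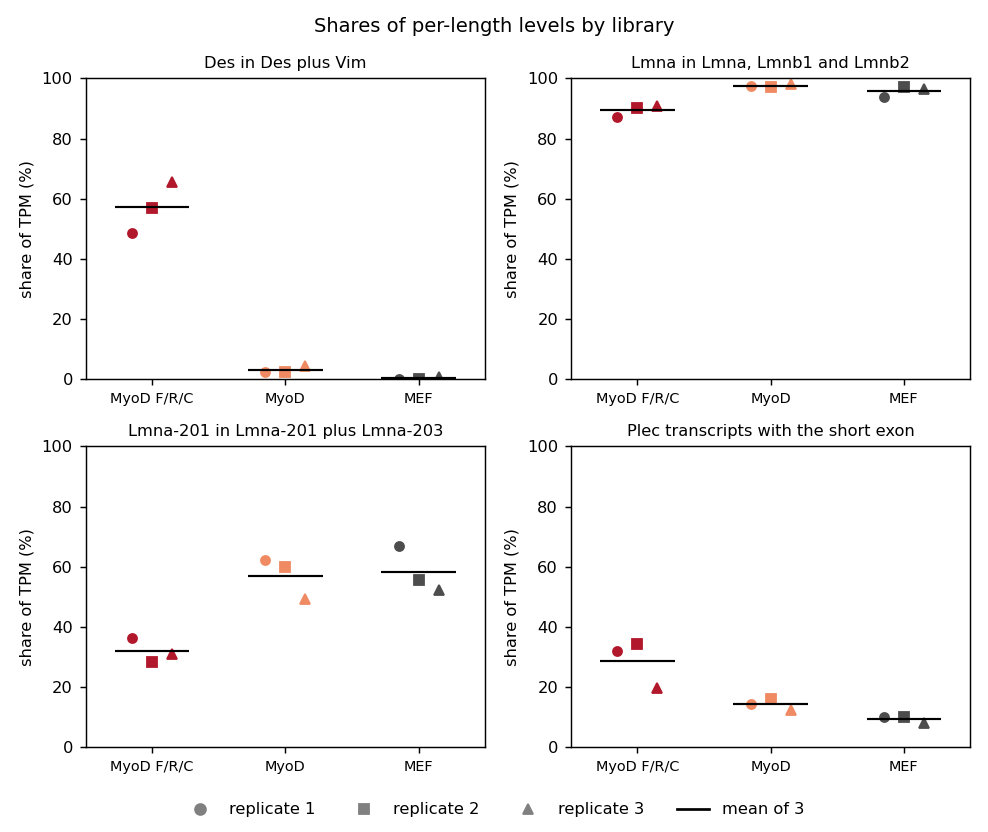
Shares of TPM in each library, in percent from 0 to 100, with MyoD F/R/C on the left, MyoD in the middle and MEF on the right and lines at the means of 3. The Des share reaches 48.7% to 65.7% in MyoD F/R/C and at most 4.53% elsewhere. The share of Lmna-201 in Lmna-201 plus Lmna-203 is at most 36.4% in MyoD F/R/C and at least 49.2% elsewhere. The share of Plec transcripts with the exon, among those that hold it or span its place, is highest in MyoD F/R/C.

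Across the 9 genes, 6 had no overlap between MyoD F/R/C and MEF libraries (5 higher, 1 lower), beside 53.2% of all genes. Between MyoD F/R/C and MyoD it was 8 (5 higher, 3 lower), beside 49.8%. Between MyoD and MEF it was 3, beside 7.52%, with Des and Nes higher and Lmnb1 lower. By mean TPM the order in MyoD F/R/C libraries was Des, Vim, Nes, Lmna, Plec, Lmnb2, Sync, Lmnb1 and Synm, with means of 2281, 1751, 425, 398, 96.8, 33.4, 31.0, 14.0 and 2.53 TPM. In MyoD libraries it was Vim, Lmna, Des, Plec, Nes, Sync, Synm, Lmnb2 and Lmnb1, with means of 6159, 597, 213, 94.99, 32.2, 17.6, 11.4, 9.18 and 5.56 TPM. In MEF libraries it was Vim, Lmna, Plec, Sync, Des, Lmnb2, Lmnb1, Synm and Nes, with means of 4529.5, 487, 76.4, 12.6, 12.1, 12.1, 8.81, 7.27 and 5.15 TPM. The summed TPM ranges of Des and Vim overlapped in MyoD F/R/C, as did those of Nes and Lmna and of Lmnb2 and Sync. Those neighbours in the order thus did not differ beyond their spread in summed TPM. The Vim sum includes the noncoding Vim-203, and each coding Vim transcript lay below Des-201 there. In MyoD this held for Des and Plec and for each pair of neighbours from Nes to Lmnb2, and in MEF for each pair from Sync to Nes.

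**Figure D4:**
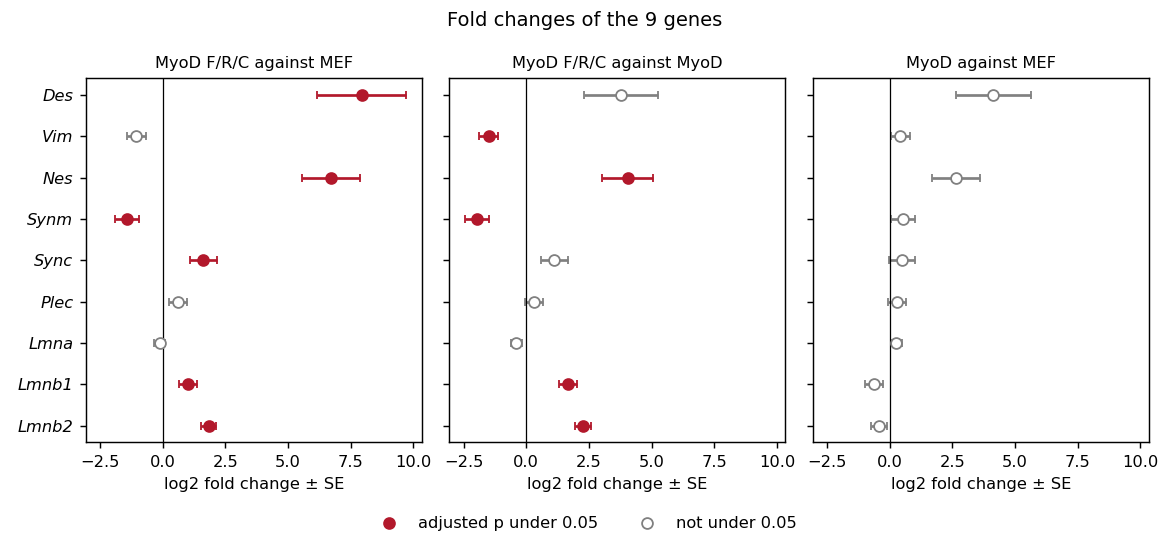
Log2 fold change with SE of the 9 genes in each comparison from edgeR, with filled points where the adjusted p was under 0.05. Against MEF, 6 points are filled, against MyoD 5, and between MyoD and MEF none, although Des and Nes lie at 4.14 and 2.65 there.

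The genes with the most similar pattern were ranked by the root mean square difference of centred log2 CPM over the 9 libraries, among 10231 genes. Nearest to Des were Casq1 (0.203), the calsequestrin of fast muscle, Mylpf (0.260), a fast myosin light chain, and Mybph (0.291), a myosin-binding protein. For Nes they were Gatm (0.162), an enzyme of creatine synthesis, Unc45b (0.342), a myosin chaperone, and Klhl41 (0.371), a Kelch protein of muscle. Those of Vim were Arhgap24 (0.187), Cdc42bpg (0.217) and Mpp1 (0.222), and those of Synm were Hyal1 (0.283), Btbd11 (0.290) and Cav1 (0.316), the gene of caveolin-1. Cdk2 (0.264), a cell cycle kinase, Fn3krp (0.295) and Rrp1b (0.298) were nearest to Lmnb1, and Mif (0.238), Parp1 (0.246) and Dffa (0.248) to Lmnb2. Lmna had the closest neighbours, Eri3 (0.0995), Ensa (0.108) and Wdr61 (0.118), which like it varied little.

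Related genes were counted in 4 lists of 69 genes, 63 of them tested. In all, 22 rose and 8 fell against MEF, beside 19.5% of all genes higher and 18.1% lower. Against MyoD, 17 rose and 7 fell, beside 17.8% of all genes higher and 16.1% lower. None was called between MyoD and MEF, where 0% of all genes were called. The counts of each list below stand beside the same shares, 37.6% of all genes called against MEF and 33.9% against MyoD. The count of 24 against MyoD was 15 without MyoD F/R/C replicate 1, 12 without MyoD F/R/C replicate 2, and 13 without MyoD replicate 1 or 2.

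Other intermediate filament genes were scarce. Of 17, 11 were tested, 5 rose and 1 fell against MEF, and 2 rose and 1 fell against MyoD, with a median log2 fold change of 3.00 against MEF, or 2.77 with Krt8 at its lower bound. Krt19, a keratin of simple epithelia, averaged 10.5 ± 2.85 CPM in MyoD F/R/C, 3.77 ± 1.94 CPM in MyoD and 1.30 ± 0.769 CPM in MEF and rose against MEF (edgeR log2 fold change 3.00 ± 0.57 SE, adjusted p = 0.00437). Prph, the peripherin of peripheral neurons, had 5.96, 0.957 and 1.10 CPM in MyoD F/R/C libraries, so replicate 1 carried most of its mean, against 0.0481 to 0.179 CPM in MyoD and 0.185 to 0.279 CPM in MEF. The keratin Krt8 averaged 0.805 CPM in MyoD F/R/C and had no count in MEF, at least 6.06-fold higher against 3 counts per library. Bfsp1, a filament gene of the eye lens, fell against MEF (-2.11 ± 0.52, edgeR adjusted p = 0.0131). Of 10 epithelial markers, 4 were tested and 3 rose against MEF, Krt19, Krt8 and Cdh1. Their sums were 12.6 to 18.5 CPM in MyoD F/R/C, 2.51 to 14.0 CPM in MyoD and 1.07 to 3.00 CPM in MEF. Krt8, Krt18 and Krt19 are in both lists, so these sums are not separate from the keratin values. Krt19 alone had 12.3, 7.20 and 12.0 CPM in MyoD F/R/C libraries. Epcam, Esrp1, Cldn4, Cldn7, Krt5 and Krt14 were too low to test, at most 0.816 CPM in any library. The part of epithelial cells in the keratin values was not tested.

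Of the 23 plakins and desmin partners, 10 rose and 1 fell against MEF (median log2 fold change 1.94) and 7 rose and 1 fell against MyoD (median 0.94). Dtna, the gene of the alpha-dystrobrevin that syncoilin binds, averaged 154 ± 29.3 CPM in MyoD F/R/C, 13.8 ± 6.23 CPM in MyoD and 5.23 ± 2.98 CPM in MEF. It rose against MEF (edgeR log2 fold change 4.88 ± 0.50 SE, adjusted p = 0.000424), and the rise against MyoD was 3.49 ± 0.46 (adjusted p = 0.00147). Flnc, the filamin of muscle Z-discs, averaged 2285 ± 224 CPM in MyoD F/R/C, 389 ± 303 CPM in MyoD and 279 ± 164 CPM in MEF and rose against both (3.04 and 2.55, edgeR adjusted p = 0.00542 and 0.012). Hspb8, a small heat shock protein of the chaperone complex that clears damaged filamin, rose likewise (3.02 and 2.06, edgeR adjusted p = 0.00177 and 0.00906). Trim32, a ubiquitin ligase for which desmin is a known substrate, fell slightly against both (-0.65 and -0.66, edgeR adjusted p = 0.0463 and 0.0477).

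Among 19 nuclear envelope genes, 6 rose and 2 fell against MEF (median log2 fold change 0.10), and 6 rose and 2 fell against MyoD (median 0.09). Tmpo, whose products (LAP2 proteins) bind lamins, averaged 159.6 ± 4.10 CPM in MyoD F/R/C, 34.7 ± 6.24 CPM in MyoD and 39.9 ± 7.51 CPM in MEF. It rose against MEF (edgeR log2 fold change 2.00 ± 0.20 SE, adjusted p = 0.000414), and the rise against MyoD was 2.20 ± 0.20 (adjusted p = 0.000531). Tmem38a, a membrane channel gene of muscle, averaged 379.8 CPM in MyoD F/R/C, 37.8 CPM in MyoD and 14.8 CPM in MEF and rose in both comparisons. Plpp7, which encodes a nuclear envelope protein of muscle, averaged 30.7 CPM in MyoD F/R/C, 9.62 CPM in MyoD and 8.66 CPM in MEF and rose likewise. Tor1aip1, the lamina-associated LAP1, fell against MEF (-1.13 ± 0.18, edgeR adjusted p = 0.00203) and MyoD (-1.09 ± 0.18, adjusted p = 0.00302).

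Of 10 genes that process the lamin precursors or supply their lipid anchor, 1 rose and 4 fell against MEF (median log2 fold change -0.47), and 2 rose and 3 fell against MyoD (median -0.44). Zmpste24, the protease that cuts the lamin A precursor, had 48.1, 50.6 and 38.7 CPM in MyoD F/R/C, 111, 86.6 and 104 CPM in MyoD, and 139.8, 98.8 and 91.6 CPM in MEF libraries. Each MyoD F/R/C library was below every other library, and the falls were -1.27 ± 0.21 against MEF (edgeR adjusted p = 0.0027) and -1.14 ± 0.21 against MyoD (adjusted p = 0.00528). Pcyox1, which breaks down prenylated cysteines, fell against both (-0.89 and -0.73, edgeR adjusted p = 0.00825 and 0.0212). Fntb, the beta subunit of the farnesyltransferase, rose (0.55 and 0.70, edgeR adjusted p = 0.046 and 0.0216), while Fnta, its alpha subunit, fell (-0.66 and -0.68, edgeR adjusted p = 0.0347 and 0.0339).

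**Figure D5:**
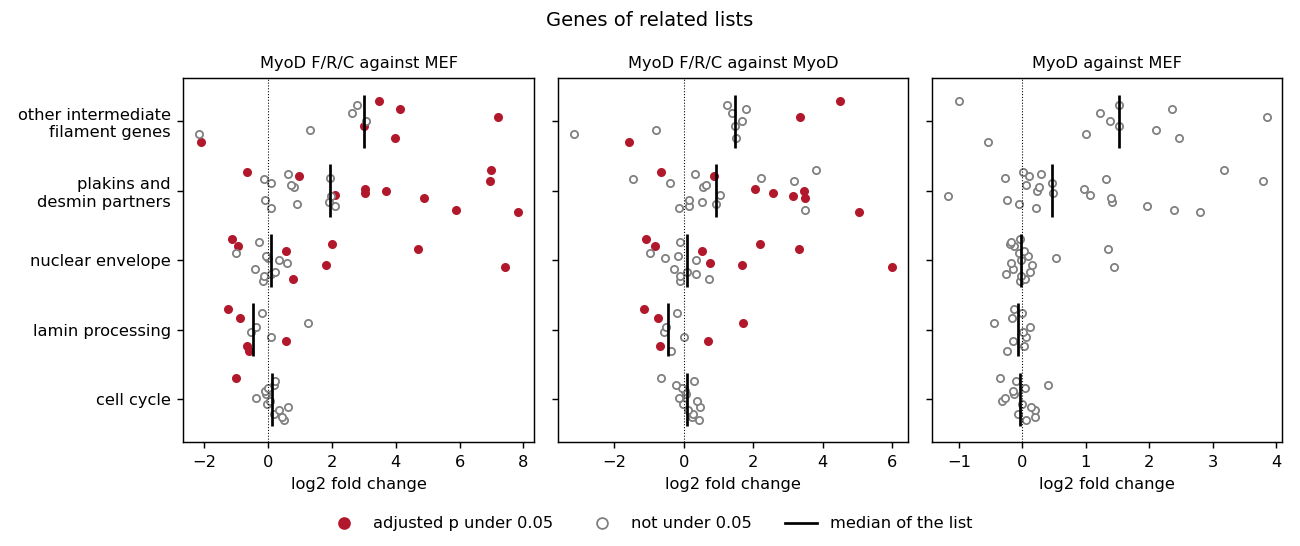
Log2 fold changes of tested genes in the 4 related lists and the cell cycle list, for each comparison, with filled points where the edgeR adjusted p was under 0.05 and a line at the median of the list. Horizontal scales differ between the panels. Filled points lie mostly at positive values for filament genes and desmin partners and mostly at negative values for lamin processing, and the cell cycle genes lie around 0.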

How the data were processed

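Polyadenylated RNA of 9 libraries was sequenced with a stranded kit, per the labels' protocols. Per the submitters' processing notes, the tools named are bcl2fastq 2.19, Trimmomatic 0.36, kallisto 0.44 and edgeR 3.28, with genome build GRCm38.p6. Which annotation release, kallisto options and strand setting were used is not given in the sources used here. Each deposited file lists 121843 transcripts and, per the file headers, their estimated counts (expected counts) and TPM values.

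Ensembl identifiers assigned 121104 transcripts to genes of GENCODE M21 (GRCm38), and 739 found no match and were dropped, with 0.2% to 0.494% of each library's counts. Estimated counts were summed per gene and rounded. The deposited TPM values served for levels per length, shares and single transcripts.

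Tests used the two-sided quasi-likelihood F test of edgeR 4.0.16 (R 4.3.3) after TMM scaling and filterByExpr (minimum count 10, minimum total 15), in 1 fit over all 9 libraries, with Benjamini-Hochberg adjustment within each comparison and calls at an adjusted p under 0.05. Transcripts were tested in the same way. The SE of a log2 fold change is its size divided by the square root of F. The fit was tested on simulated counts, with 100 genes changed 2-fold and 100 changed 4-fold in MyoD F/R/C. For MyoD F/R/C against MEF it called 4% of the 2-fold and 62% of the 4-fold changes, with 0 false calls. The changed genes were few among the 15714 simulated, whereas 37.6% of genes were called in the data. The adjustment was therefore stricter in the simulation, and its rates do not give the sensitivity of the real tests. A gene that was not called is still not shown to be unchanged. DESeq2 1.42.0 and other scalings, filters, fits and left-out libraries were alternatives. An adjusted p that DESeq2 left empty, as for Des, was kept empty.

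The 9 genes, the related lists and the marker lists were chosen with earlier results of these data known. All 9 genes were named, with, from each related list and comparison, genes among the 3 called of smallest adjusted p in the main direction and 1 in the other, and transcripts with a group mean of at least 1 TPM. Marker genes named beside a result, such as Ncam1 and Cdh1, were picked after their values were seen.

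Replicate numbers were checked by the correlation of deviations from group means. Equal numbers correlated at 0.632 to 0.729 between MyoD and MEF, at 0.101 to 0.151 between MyoD F/R/C and MEF, and at 0.0837 to 0.164 between MyoD F/R/C and MyoD, where not all passed the limit of 0.1 taken for pairing. Unlike numbers of MyoD and MEF correlated at -0.593 to 0.0553. The main fit took no account of replicate numbers, also between MyoD and MEF. Values of the fit with the replicate block are given where they change a call.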

Additional observations from a re-analysis of the deposited data

How the results depend on the processing

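Of 483 fold changes of the 9 genes under other settings, 425 kept their direction and side of the threshold, 34 lost the call, 20 gained it and 4 reversed. The reversals were all of values that passed no test: Lmna against MEF with counts scaled from TPM (0.0232), and 3 between MyoD and MEF with a library left out. Of these, Sync ran from -0.39 without MyoD replicate 3 to 0.89, Plec from -0.0816 without MyoD replicate 3 to 0.59, and Lmnb2 from -0.63 to 0.062 without MEF replicate 1. The cause was not tested. With each library left out in turn, 3 to 6 of the 9 genes were called for MyoD F/R/C against MEF, 3 to 6 against MyoD and 0 to 2 between MyoD and MEF. Related genes called numbered 12 to 31 for MyoD F/R/C against MyoD and 0 to 4 for MyoD against MEF, and transcripts of the 9 genes 5 to 15 for MyoD F/R/C against MEF, 1 to 11 against MyoD and 0 to 1 between MyoD and MEF. A fit of only those groups called 14 transcripts for MyoD F/R/C against MyoD. Between MyoD and MEF, all genes called numbered 171 with DESeq2 (2 of the related genes), 11 with no filter, and 0 to 161 with a library left out, the most without MEF replicate 3. Leaving out replicate 3 of MEF and of MyoD, chosen after seeing the data, gave 2 of the 9 genes there, Des (adjusted p = 0.000249) and Nes (0.0189), and called Plec for MyoD F/R/C against MEF (0.0373).

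A replicate block in the fit gave 13 genes called between MyoD and MEF, none of them among the 9. The block changed no gene call of the 9 against MEF, and against MyoD it added Des and Sync. It lowered the transcripts called to 11 against MEF and 6 against MyoD, where Vim-201 (0.0507), Plec-204 (0.0698) and Des-203 (0.064) lost theirs and Nes-201 gained one (0.0324); Sync-201 gained one against MEF (0.049). The pairing of MyoD F/R/C with MyoD numbers did not reach the limit for all 3 pairs.

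Scaling by total counts alone moved the median log2 fold change of all genes to -0.13, -0.20 and 0.09 for MyoD F/R/C against MEF, MyoD F/R/C against MyoD and MyoD against MEF. For MyoD F/R/C against MyoD the share of calls that were higher was 42.4% with that scaling and 52.5% with TMM. The precision is limited by 3 libraries a group, by the spread of MEF replicate 3, and, for single transcripts, by the division of shared reads. Exons of Plec (Parp10), Des (Gm15179) and Synm (Ttc23, Gm45102) overlap those of the genes in brackets.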
